A study of Mus musculus with 12 samples.

Results

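The genes described here are 38 high-confidence autism risk genes from a list meant to leave out synaptic scaffold, receptor, channel and histone enzyme genes. Cask, a scaffold of presynaptic adhesion complexes, is nevertheless among them. The 38 were listed by gene name, with no measured value in the rule but with earlier results of these data known. All 38 were found in a table of 19312 genes measured by RNA-Seq in the brains of male C57BL/6N mice, and all 38 passed the filter of a mean normalized count of at least 10. The 12 forebrains were sequenced one by one, without pooling, and fall into 4 groups of 3 mice. WT-Veh and WT-Mem are wild-type mice given vehicle (0.1% saccharin) or memantine, an NMDA receptor antagonist, at 20 mg/kg. KO-Veh and KO-Mem are mice with a homozygous germline deletion of Shank2 exons 6 and 7 given the same vehicle or memantine. Oral dosing ran from postnatal day 7 to day 21, 2 doses each day, and brains were taken at postnatal day 25. The methods state that the cerebellum and the brain stem beneath it were removed, whereas the sample labels give whole brain as the tissue.

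These risk genes act at several levels of the cell. Transcription factors such as Tbr1 and Foxp1 and nuclear cofactors such as Adnp and Med13l set which genes neurons transcribe during cortical development. RNA factors such as Fmr1, which encodes the fragile X protein, control when transcripts are translated, and signalling proteins such as the Tsc1-Tsc2 complex and Nf1 restrain the mTOR and Ras pathways. Ankyrins and dynein organize the axon and its transport, while Cntnap2, Dscam, Ptchd1, Cask and Reln act at or outside the cell surface. Many are dosage sensitive, and loss of a single copy is linked to autism or intellectual disability in people.

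The genotype labels were checked with Shank2 itself. Its normalized count, an estimated gene count scaled to be comparable between mice, was 8000 ± 498 (SD, n = 3) in WT-Veh against 2927 ± 178 in KO-Veh mice, and 7880 ± 697 in WT-Mem against 2900 ± 247 in KO-Mem mice. Every KO mouse was below every WT mouse, with a log2 fold change of -1.45 (SE 0.07, limma adjusted p = 1.77e-05) under vehicle and -1.44 (SE 0.08, limma adjusted p = 0.000186) under memantine. Sums of normalized counts ran from 30373849 to 31199251 per mouse, which reflects the scaling and not the sequencing depth. Among values above 0 and under 1.5, the median per mouse was 0.872 to 1.13 normalized counts. The cutoff confines this range, so it does not give the worth of a single read, and the reads behind a value are not known. All 7 excitatory neuron markers, 7 inhibitory neuron markers and 6 deep layer cortical neuron markers were above 0 in every mouse. Markers of cerebellar granule neurons summed to between 1904 and 4066 normalized counts, much of it Zic1, at 1190 to 2109. They were highest in KO-Veh replicate 3, where they averaged 2.18 above their 12-mouse mean on the log2 scale. In that mouse Gabra6 was 253.9 and Cbln3 744.8. In the other mice these 2 genes were at most 12.88 and 64.99, both in WT-Veh replicate 3. Whether cerebellar tissue remained in KO-Veh replicate 3 was not tested.

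The 38 risk genes were expressed well above the typical gene, and their median variation within groups was below that of all genes. Per kb of exon, which allows genes to be compared with each other, their median level was 285 normalized counts against 92.4 for all genes with a position. Dync1h1, the cytoplasmic dynein heavy chain that moves cargo towards the cell body, had the highest level at 2160 per kb, followed by the RNA helicase gene Ddx3x at 1200 and the ankyrin gene Ank2 at 786. Katnal2, which encodes a katanin-like microtubule protein, had the lowest at 30.5 per kb, with a mean of 124 normalized counts over the 12 mice. The median coefficient of variation of the risk genes within a group was 6.83% in WT-Veh mice (all genes 9.36%), 7.55% in WT-Mem (9.02%), 5.06% in KO-Veh (7.96%) and 6.96% in KO-Mem (9.7%). The all-gene medians were not matched for expression level. Single risk genes reached 42.7%, 21.6%, 15.9% and 31.1% in the same order of groups. They were also long, with a median span of 147 kb against 19.2 kb, and a median exon length of 9.93 kb against 3.81 kb.

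**Figure D1:**
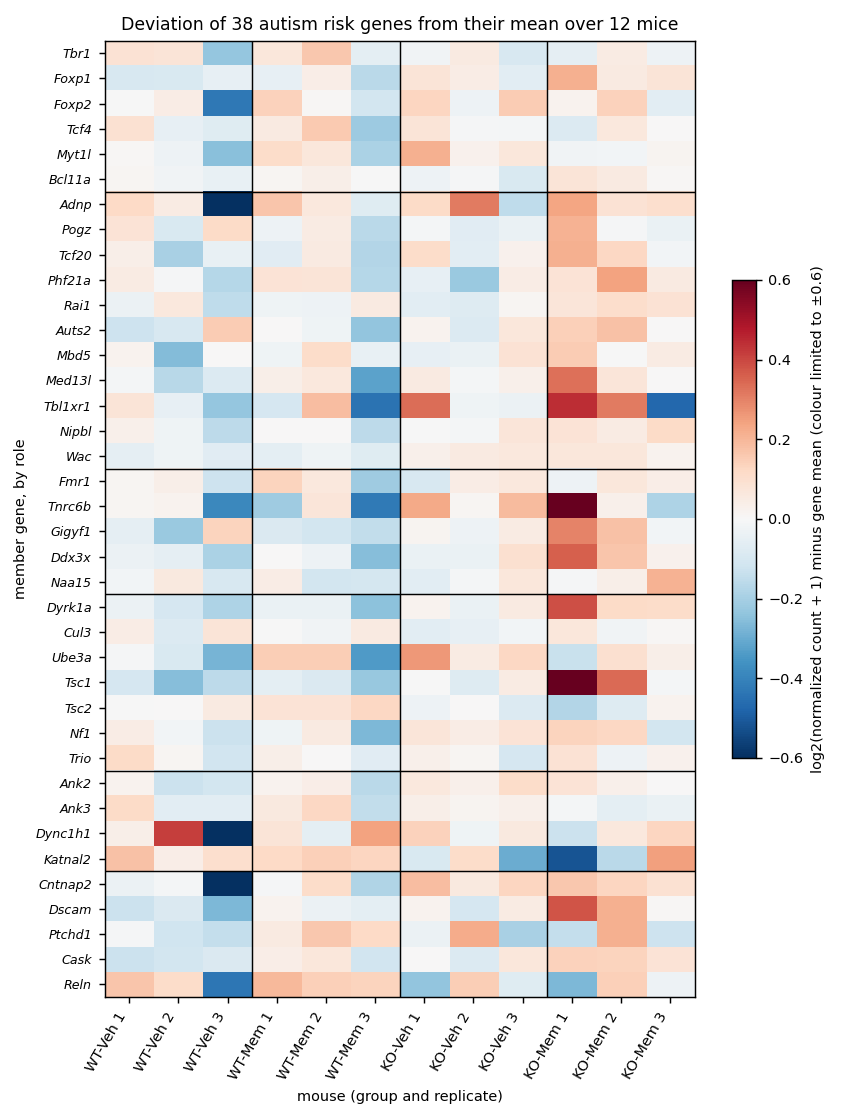
Deviation of each of the 38 autism risk genes (rows, grouped by role) in each of the 12 mice (columns), as log2(normalized count + 1) minus the mean of the gene over the 12 mice, with colour limited to 0.6 in either direction. KO-Mem replicate 1 is the highest mouse for 16 genes, and WT-Mem replicate 3 and WT-Veh replicate 3 are the lowest for 15 and 10.

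Individual mice stood apart, and this is given before the comparisons because several results rest on them. WT-Veh replicate 3 was the lowest of the 12 mice for 10 of the 38 risk genes, WT-Mem replicate 3 for 15, and KO-Mem replicate 1 was the highest for 16. Over all genes of the table, WT-Veh replicate 3 was lowest for 15.1%, WT-Mem replicate 3 was lowest for 11.2% and KO-Mem replicate 1 was highest for 19.9%. The median deviation of the risk genes from their 12-mouse mean was -0.13 in WT-Veh replicate 3, -0.15 in WT-Mem replicate 3 and 0.08 in KO-Mem replicate 1 on the log2 scale, while the median over all genes was between 0.00 and 0.01 in these mice. By group mean, 19 of the risk genes were lowest in WT-Veh and 25 were highest in KO-Mem, and none was highest in WT-Veh. The matching shares over all genes were not computed, so this order cannot be called particular to the risk genes. Over all genes, WT-Veh replicate 3 was also highest for 15.1% and KO-Mem replicate 1 also lowest for 19.8%.

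The first question was how genotype shifted these genes at baseline (Veh-K/W, KO-Veh against WT-Veh) and after memantine (Mem-K/W, KO-Mem against WT-Mem). Most risk genes lay slightly higher in KO mice, and none passed the test with 3 mice a group. In Veh-K/W, 29 of 38 had a log2 fold change above 0 and the median was 0.09, against 50.4% and 0.00 for all genes tested. The study had already reported positive enrichment of autism risk gene sets in Veh-K/W from these mice, so this direction is not an independent observation. For Mem-K/W the study reported a weaker pattern, with enrichment of the SFARI autism genes no longer significant. Its larger gene sets and its ranking of all genes are a different measure from the counts given here. None of the 38 had an adjusted p under 0.05 by limma, where 0.0283% of all genes did. The study, with DESeq2 on the same mice, called more genes in Veh-K/W and in Mem-K/W than limma did here. At an unadjusted p under 0.05, 5 risk genes were higher and 0 lower, against 6.73% higher and 7.68% lower over all genes. The groups did not overlap for 9 of the 38, all higher in KO, against 20.4% of all genes. In Mem-K/W, 29 of 38 were again above 0, with a median of 0.10 against 50.3% and 0.00 for all genes, and none was called by limma, where 0.068% of all genes were. At an unadjusted p under 0.05, 7 were higher and 1 lower, against 10.1% and 10.8% over all genes, and 10 did not overlap between the groups, against 26.2%. The RNA of whole tissue pieces was measured, so fewer cells of a type and less RNA per cell cannot be told apart in any of these values.

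With both treatments combined in a fit of all 12 mice, Tsc1 and Dyrk1a rose in KO mice. These 2 of 38 compare with 10.5% of all genes called by limma at an adjusted p under 0.05, 4.79% higher and 5.73% lower in KO. Of the 38, 31 were above 0 with a median log2 difference of 0.10, against 50.9% and 0.00 for all genes. At an unadjusted p under 0.05, 13 risk genes were higher and 1, Tsc2, was lower, against 14.3% and 15.1% over all genes. By role, all 11 nuclear cofactors (median 0.10) and all 5 RNA and translation factors (median 0.16) were above 0, as were 5 of 6 transcription factors (median 0.05), 5 of 7 signalling genes (median 0.12), 3 of 5 surface or secreted genes (median 0.11) and 2 of 4 cytoskeletal genes (median 0.03).

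**Figure D2:**
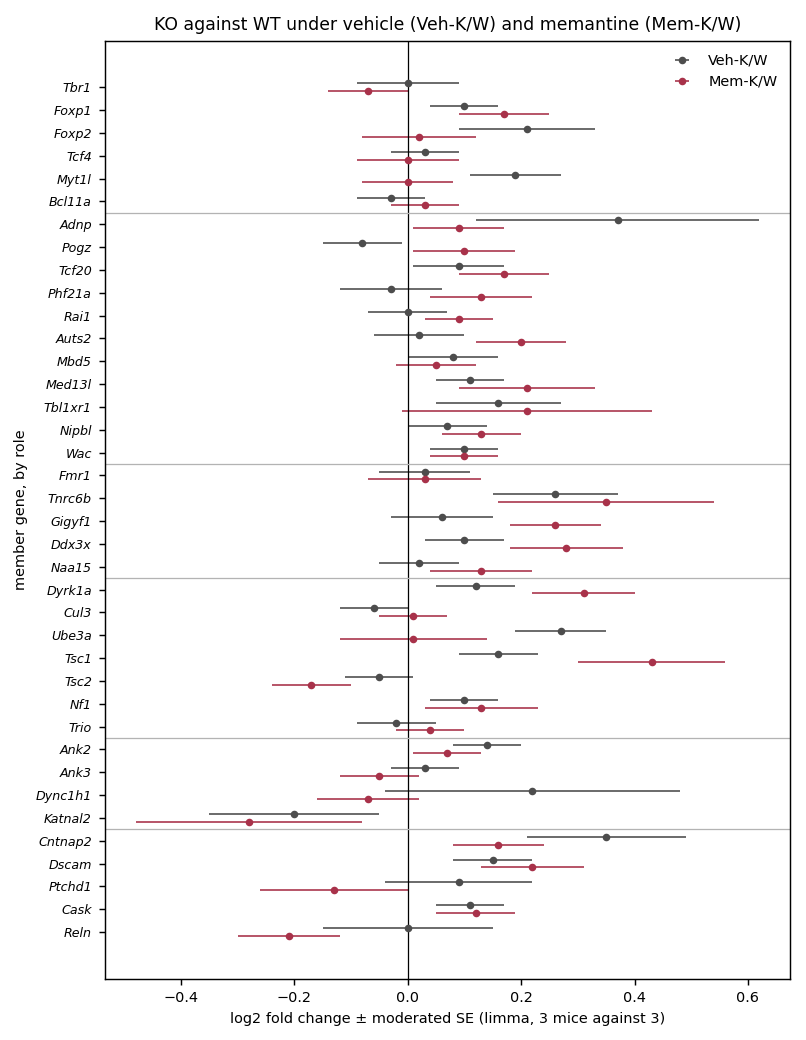
Log2 fold change of KO against WT (horizontal axis) with its moderated standard error for the 38 risk genes (rows, by role), under vehicle (Veh-K/W, grey) and under memantine (Mem-K/W, red), 3 mice against 3. Most points lie to the right of 0, with medians of 0.09 and 0.10, and the largest value is that of Tsc1 under memantine at 0.43.

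Among the transcription factors, differences between genotypes were small. Foxp1, a forkhead repressor of cortical and striatal neurons, had group means of 2894 ± 56.5 in WT-Veh against 3104 ± 156 in KO-Veh mice, and 2945 ± 207 in WT-Mem against 3315 ± 198 in KO-Mem mice (SD, n = 3). Its pooled genotype difference was 0.14 (SE 0.05, limma adjusted p = 0.0804). Myt1l, a zinc finger factor that keeps non-neuronal genes off in neurons, had normalized counts of 8762, 8536 and 7340 in WT-Veh and 10105, 8897 and 9150 in KO-Veh mice. These groups did not overlap, and the Veh-K/W log2 fold change was 0.19 (SE 0.08, limma adjusted p = 0.311). Under memantine Myt1l overlapped, with 9433, 9146 and 7649 in WT-Mem and 8600, 8615 and 8833 in KO-Mem mice, at a fold change of 0.00 on the log2 scale (SE 0.08). Foxp2, which is linked to speech, had a Veh-K/W value of 0.21 (SE 0.12, limma adjusted p = 0.451). Pooled differences were -0.03 for Tbr1 of deep layer projection neurons, 0.01 for the basic helix-loop-helix factor gene Tcf4 and 0.00 for the zinc finger gene Bcl11a, each no larger than its SE of 0.06, 0.06 and 0.04.

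In the pooled fit the nuclear cofactors and chromatin readers all lay on the positive side, and none was called. In Veh-K/W 8 of 11 were above 0. Wac, an adaptor that links histone ubiquitylation with transcription, was the only risk gene for which all 6 KO mice were above all 6 WT mice, a separation shown in that direction by 1.86% of all genes and in either direction by 4.06%. Its normalized counts were 3152, 3214 and 3129 in WT-Veh against 3350, 3397 and 3423 in KO-Veh mice, and 3151, 3222 and 3116 in WT-Mem against 3439, 3438 and 3326 in KO-Mem mice. The spread within each group was narrow and the KO values began above the highest WT value. The pooled difference was 0.10 (SE 0.04, limma adjusted p = 0.0769), and Wac was singled out after its values were seen. Wac shares 4.39% of its exon bases with a gene on the opposite strand.

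The pooled differences of the other cofactors ran from 0.01 to 0.23. Med13l, a subunit of the Mediator kinase module, had 0.16 (SE 0.07, limma adjusted p = 0.145), and Tcf20, a transcriptional coregulator, had 0.13 (SE 0.06, limma adjusted p = 0.148). Values were 0.19 (SE 0.14) for the NCoR corepressor subunit gene Tbl1xr1, 0.11 (SE 0.06) for Auts2, 0.10 (SE 0.05) for the cohesin loader gene Nipbl, 0.07 (SE 0.06) for the methyl-CpG-binding domain gene Mbd5, 0.05 (SE 0.07) for Phf21a, 0.04 (SE 0.04) for Rai1 and 0.01 (SE 0.06) for the zinc finger gene Pogz. Apart from Adnp at 0.23 (SE 0.15), Tbl1xr1 had the widest SE of these. The KO-Mem values of Tbl1xr1 were 2676, 2450 and 1423. In the third KO-Mem mouse it was 55.5% of the mean of the other two.

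Adnp, a homeodomain zinc finger gene whose loss causes Helsmoortel-Van der Aa syndrome, had a wide spread within WT-Veh mice. Its normalized counts were 2967, 2823 and 1345 in WT-Veh against 2952, 3385 and 2456 in KO-Veh mice, and 3065, 2848 and 2592 in WT-Mem against 3221, 2896 and 2929 in KO-Mem mice. WT-Veh replicate 3 was at 46.5% of the mean of the other two WT-Veh mice, and the genotype groups overlapped under either treatment. The Veh-K/W log2 fold change of 0.37 (SE 0.25, limma adjusted p = 0.513) was 0.01 without that mouse. Adnp (chr2:168180986-168207112, minus strand, GRCm38) shares 82.1% of its exon bases with Gm20716, a longer gene on the same strand, so the reads of the pair can be divided between them in more than 1 way. In WT-Veh replicate 3, Gm20716 was at its highest of the 12 mice, 2623, and in KO-Veh replicate 2, where Adnp was highest, it was at its lowest, 1348. The coefficient of variation over the 12 mice was 18.6% for Adnp, 16.5% for Gm20716 and 7.09% for their sum, which ran from 3968 to 5394. The lowest sum was again that of WT-Veh replicate 3, and the next lowest was 4709 in WT-Mem replicate 3. With the counts of both genes added, an alternative chosen after seeing the data, the Veh-K/W value was 0.15 (limma adjusted p = 0.418) and the pooled genotype difference moved from 0.23 to 0.12 (limma adjusted p = 0.131).

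**Figure D3:**
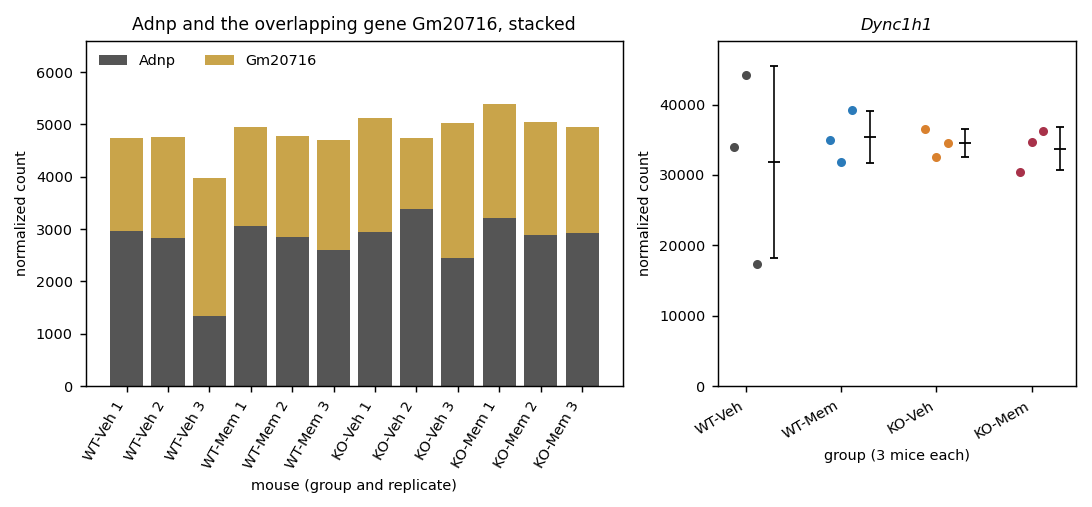
Left, normalized counts of Adnp (grey) and the gene Gm20716 that shares its exons (yellow), stacked for each of the 12 mice. Right, normalized counts of Dync1h1 per mouse (points) with group mean and SD (bars, n = 3). The sum of the stacked pair varies less, 3968 to 5394, than Adnp alone, 1345 to 3385, and WT-Veh replicate 3 is lowest for both Adnp and Dync1h1.

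The RNA and translation factors had the highest median of the 6 roles in the pooled fit (0.16) and in Mem-K/W (0.26), but not in Veh-K/W (0.06), where surface or secreted genes had 0.11. Ddx3x, an X-linked RNA helicase needed for translation initiation, had normalized counts of 6123, 6040 and 5496 in WT-Veh and 6281, 6152 and 5267 in WT-Mem mice. In KO-Veh mice they were 6103, 6110 and 6716, and in KO-Mem mice 8062, 7054 and 6400. KO-Mem lay above WT-Mem without overlap, whereas the vehicle groups overlapped, with log2 fold changes of 0.28 (SE 0.10, limma adjusted p = 0.15) and 0.10 (SE 0.07). Gigyf1, a translational repressor that works with the cap-binding protein 4EHP, had 2525, 2484 and 2422 in WT-Mem and 3291, 3026 and 2647 in KO-Mem mice. The groups did not overlap and the Mem-K/W value was 0.26 (SE 0.08, limma adjusted p = 0.133). Under vehicle Gigyf1 overlapped, with 2581, 2299 and 2943 in WT-Veh and 2711, 2623 and 2772 in KO-Veh mice.

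Tnrc6b, a scaffold of microRNA-guided silencing, had the largest pooled difference of the 38 genes and one of the widest errors, 0.31 (SE 0.13, limma adjusted p = 0.125). Its normalized counts were 4571, 4606 and 3464 in WT-Veh against 5296, 4573 and 5166 in KO-Veh mice, and 3905, 4772 and 3380 in WT-Mem against 7077, 4632 and 3991 in KO-Mem mice. KO-Mem replicate 1 was at 164% of the mean of the other two KO-Mem mice, and the KO-Mem range overlapped that of both WT groups. Fmr1 had 0.03 (SE 0.06) and Naa15, the anchoring subunit of the NatA acetyltransferase, 0.08 (SE 0.05).

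The 2 genes that passed the pooled test belong to the signalling group. Tsc1 (chr2:28641228-28691167, plus strand) encodes hamartin, and Tsc2 (chr17:24595816-24632630, minus strand) encodes tuberin, the subunit that switches off the small GTPase Rheb and so restrains mTOR. Dyrk1a (chr16:94570010-94695517, plus strand) encodes a dosage-sensitive kinase of the Down syndrome region. The RefSeq promoter windows of these genes, 250 bases before to 50 after a start on GRCm38.p6, are shown because Tsc1 and Dyrk1a were the called genes and Tsc2 is the partner with a difference of the opposite sign. Capitals mark the GC box GGGCGG, searched on both strands. They are Tsc1 (chr2:28640983-28641282, plus strand), Tsc2 (chr17:24632578-24632877, minus strand) and the first of 3 windows of Dyrk1a (chr16:94569956-94570255, plus strand).
Tsc1: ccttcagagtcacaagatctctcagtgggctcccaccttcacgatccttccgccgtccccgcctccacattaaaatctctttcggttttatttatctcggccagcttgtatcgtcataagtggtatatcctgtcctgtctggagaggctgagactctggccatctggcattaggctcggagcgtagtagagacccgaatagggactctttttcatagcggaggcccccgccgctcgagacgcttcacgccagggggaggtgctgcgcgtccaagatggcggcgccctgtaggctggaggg
Tsc2: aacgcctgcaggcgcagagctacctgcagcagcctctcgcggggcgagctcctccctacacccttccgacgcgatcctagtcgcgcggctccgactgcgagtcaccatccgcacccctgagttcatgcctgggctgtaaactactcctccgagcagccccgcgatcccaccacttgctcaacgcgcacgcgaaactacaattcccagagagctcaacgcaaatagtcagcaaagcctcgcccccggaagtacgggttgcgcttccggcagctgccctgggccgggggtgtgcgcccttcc
Dyrk1a: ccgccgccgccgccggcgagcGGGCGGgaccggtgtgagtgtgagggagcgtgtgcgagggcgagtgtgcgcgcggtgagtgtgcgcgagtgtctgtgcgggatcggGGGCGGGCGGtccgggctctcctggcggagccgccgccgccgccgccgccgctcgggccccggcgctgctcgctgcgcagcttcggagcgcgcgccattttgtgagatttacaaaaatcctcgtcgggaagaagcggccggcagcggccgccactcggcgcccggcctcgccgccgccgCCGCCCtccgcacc
The Tsc1 and Tsc2 windows held 0 GC boxes and GC contents of 57.3% and 65%. The Dyrk1a window held 4, with a GC content of 77%, and its other windows held 3 and 0.

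Promoter windows were found for 30 of the 38 risk genes, 46 windows in all, and were compared with all 32851 windows of the mouse table. No window was listed for Ank3, Auts2, Cask, Foxp2, Katnal2, Nipbl, Tcf4 and Wac. The windows of the risk genes were richer in GC, with a median of 61.7% against 52.7%, and 58.7% had a ratio of observed to random CpG of at least 0.6 against 35.8% of all. A GC box was present in 56.5% against 35.7% and the E-box CACGTG in 13% against 7.15%. TATAAA was found in 4.35% against 13.6% and CCAAT in 28.3% against 37.4%, while the cyclic AMP response element TGACGTCA was found in 0 of the 46 against 1.79%. Windows of 1 gene overlap in part, and these matches describe letters and not bound sites.

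Tsc1 had normalized counts of 3006, 2701 and 2887 in WT-Veh against 3222, 3055 and 3331 in KO-Veh mice, and 3095, 3033 and 2752 in WT-Mem against 4872, 4075 and 3194 in KO-Mem mice. Under each treatment every KO mouse was above every WT mouse, and 2 of the KO-Mem mice stood far above the rest. The pooled log2 difference was 0.30 (SE 0.08, limma adjusted p = 0.0336), with 0.16 (SE 0.07, limma adjusted p = 0.311) in Veh-K/W and 0.43 (SE 0.13, limma adjusted p = 0.125) in Mem-K/W. Across the alternative settings the pooled adjusted p by limma ran from 0.00124 to 0.0917. It was above 0.05 with eBayes without trend and without any 1 of 9 of the 12 mice, among them KO-Mem replicate 1, without which the difference was 0.22 (limma adjusted p = 0.0681).

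Tsc2 went the other way in sign. Its normalized counts were 4782, 4789 and 4964 in WT-Veh against 4690, 4783 and 4522 in KO-Veh mice, and 5063, 5070 and 5214 in WT-Mem against 4236, 4529 and 4855 in KO-Mem mice. All KO-Mem mice were below all WT-Mem mice, while KO-Veh and WT-Veh overlapped. The Mem-K/W log2 fold change was -0.17 (SE 0.07, limma adjusted p = 0.178) and the pooled difference was -0.11 (SE 0.04, limma adjusted p = 0.083). The ratio of the Tsc1 to the Tsc2 count, looked at after the values were seen, was 0.564 to 0.629 in WT-Veh, 0.528 to 0.611 in WT-Mem, 0.639 to 0.737 in KO-Veh and 0.658 to 1.15 in KO-Mem mice. The lowest KO ratio, 0.639, lay just above the highest WT ratio, 0.629. How often other pairs of genes separate in this way was not examined. Tsc2 shares 7.2% of its exon bases with its neighbour on the opposite strand, and the library kit does not mark strand.

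Dyrk1a had 2357, 2254 and 2126 in WT-Veh against 2447, 2344 and 2510 in KO-Veh mice, and 2345, 2348 and 2033 in WT-Mem against 3161, 2614 and 2604 in KO-Mem mice. The memantine groups did not overlap, and under vehicle 1 WT mouse exceeded 1 KO mouse by a small margin. The pooled difference was 0.22 (SE 0.06, limma adjusted p = 0.0356, range 0.0174 to 0.123 over the alternatives), with 0.12 (SE 0.07) in Veh-K/W and 0.31 (SE 0.09, limma adjusted p = 0.125) in Mem-K/W. The call was lost without any 1 of 8 of the 12 mice and with eBayes without trend. Without KO-Mem replicate 1 it was 0.17 and without both KO-Mem replicate 1 and WT-Veh replicate 3 it was 0.15, no longer under an adjusted p of 0.05 by limma in either case.

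**Figure D4:**
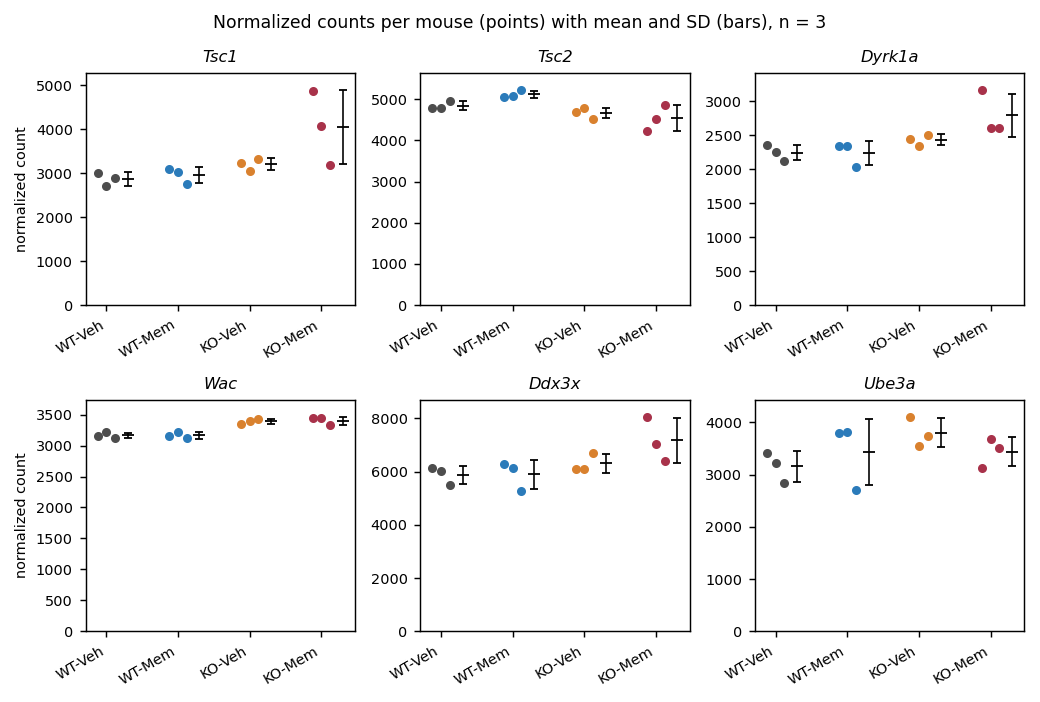
Normalized counts of Tsc1, Tsc2, Dyrk1a, Wac, Ddx3x and Ube3a in each mouse (points) with the group mean and SD (bars, n = 3), with axes from 0. Wac separates all 6 KO mice (3326 to 3439) from all 6 WT mice (3116 to 3222), and KO-Mem replicate 1 is highest for Tsc1, Dyrk1a and Ddx3x.

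Ube3a, the ubiquitin ligase lost in Angelman syndrome and read mainly from the maternal copy in neurons, had the smallest p of the 38 in Veh-K/W. Its normalized counts were 3419, 3222 and 2833 in WT-Veh and 4111, 3554 and 3750 in KO-Veh mice. The groups did not overlap, and the log2 fold change was 0.27 (SE 0.08, limma adjusted p = 0.217). Under memantine they overlapped, with 3802, 3813 and 2712 in WT-Mem and 3129, 3677 and 3517 in KO-Mem mice, at a fold change of 0.01 on the log2 scale (SE 0.13). Ube3a (chr7:59228750-59311536, plus strand) shares 27.3% of its exon bases with 3 genes on the opposite strand, 9.82% with Gm44560, 8.74% with Snhg14, the transcript from which its antisense RNA is made, and 8.71% with 9330162G02Rik. Without strand the reads there cannot be told apart, and Snhg14, at 7054, was also lowest of the 12 mice in WT-Mem replicate 3. The other signalling genes had pooled differences of 0.12 (SE 0.06, limma adjusted p = 0.227) for the Ras inhibitor gene Nf1, -0.03 (SE 0.04) for Cul3, the scaffold of a ubiquitin ligase, and 0.01 (SE 0.05) for Trio, a guanine nucleotide exchange factor.

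No cytoskeletal gene was called. Dync1h1 had normalized counts of 33979, 44233 and 17276 in WT-Veh against 36496, 32564 and 34555 in KO-Veh mice, and 34982, 31905 and 39221 in WT-Mem against 30362, 34649 and 36249 in KO-Mem mice. The highest and the lowest of the 12 mice were both in WT-Veh, where replicate 3 was at 44.2% of the mean of the other two. The pooled difference was 0.08 (SE 0.16, limma adjusted p = 0.785). Katnal2 had 138.9, 126.1 and 131.8 in WT-Veh against 115, 132.5 and 99.42 in KO-Veh mice, and 133.3, 135.7 and 134.2 in WT-Mem against 85.43, 109.5 and 145.6 in KO-Mem mice. The WT values were tight and the KO values spread to both sides of them, with a pooled difference of -0.24 (SE 0.13, limma adjusted p = 0.223). The spectrin-binding ankyrins had 0.11 (SE 0.05, limma adjusted p = 0.133) for Ank2 and -0.01 (SE 0.05) for Ank3, which builds the axon initial segment.

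At the cell surface, Cntnap2 and Dscam had positive differences that did not pass the test. Cntnap2, a neurexin-related protein that clusters potassium channels beside the node of Ranvier, had 4610, 4683 and 3059 in WT-Veh against 5357, 4910 and 5157 in KO-Veh mice, and 4692, 5087 and 4169 in WT-Mem against 5290, 5157 and 5035 in KO-Mem mice. The vehicle groups did not overlap, but WT-Veh replicate 3 was at 65.8% of the mean of the other two. The Veh-K/W log2 fold change was 0.35 (SE 0.14, limma adjusted p = 0.299) and 0.15 without that mouse, and the pooled difference was 0.25 (SE 0.09, limma adjusted p = 0.0826). Dscam, an adhesion molecule of neurite self-avoidance, had a pooled difference of 0.19 (SE 0.06, limma adjusted p = 0.058). Cask, an X-linked scaffold of presynaptic adhesion complexes, had 0.11 (SE 0.04, limma adjusted p = 0.109). Reln, the secreted protein that guides neuronal layering, had -0.10 (SE 0.10) and the X-linked patched-related gene Ptchd1 -0.02 (SE 0.09).

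The next comparisons asked how memantine shifted the risk genes in KO mice (KO-M/V, KO-Mem against KO-Veh) and in WT mice (WT-M/V, WT-Mem against WT-Veh). None of the 38 was called by limma in either, where 0% and 0.0114% of all genes were. In KO-M/V, 27 of 38 were above 0 with a median of 0.05, against 49.7% and 0.00 for all genes. At an unadjusted p under 0.05, 5 risk genes were higher and 0 lower, against 4.34% and 4.54% over all genes, and 7 did not overlap between the groups, against 13.9%. In WT-M/V, 26 of 38 were above 0 with a median of 0.02, against 50% and 0.00. At an unadjusted p under 0.05, 0 were higher and 0 lower, against 1.5% and 2.47%, and 3 did not overlap, against 9.34%. With both genotypes combined, 30 of 38 were above 0 with a median of 0.04, against 50.4% and 0.00, and 0 were called by limma, as of all genes (0%). Of the 38, 3 were higher and 0 lower at an unadjusted p under 0.05, against 3.63% and 5.05%.

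**Figure D5:**
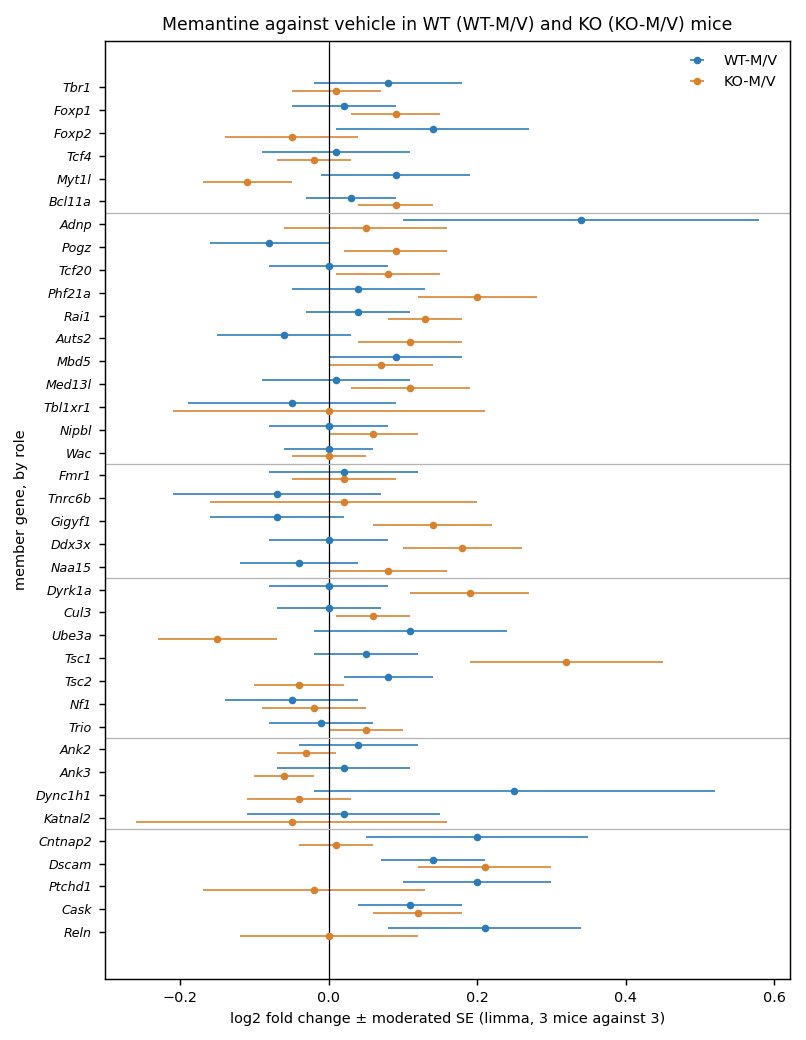
Log2 fold change of memantine against vehicle (horizontal axis) with its moderated standard error for the 38 risk genes (rows, by role), in WT mice (WT-M/V, blue) and KO mice (KO-M/V, orange), 3 mice against 3. The points lie around 0 with medians of 0.02 and 0.05, and the widest bars belong to Adnp and Dync1h1 in WT mice.

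In KO mice, the 4 risk genes with the smallest p were Rai1, Tsc1, Phf21a and Dyrk1a, each with a limma adjusted p of 0.555. Rai1, the dosage-sensitive gene of Smith-Magenis syndrome, had 3240, 3203 and 3411 under vehicle against 3554, 3635 and 3589 under memantine, without overlap, for a log2 fold change of 0.13 (SE 0.05). In the WT groups Rai1 was 3300, 3531 and 3040 under vehicle and 3321, 3309 and 3512 under memantine, within the vehicle range. Phf21a, a subunit of the LSD1 corepressor complex, had 1601, 1420 and 1710 under vehicle against 1754, 1962 and 1723 under memantine, which did not overlap, for 0.20 (SE 0.08). Its WT values were 1715, 1649 and 1473 under vehicle and 1753, 1751 and 1471 under memantine. Tsc1, from the values given above, had 0.32 (SE 0.13) with overlapping groups and Dyrk1a 0.19 (SE 0.08) without overlap. KO-Mem mice enter both this comparison and Mem-K/W, so these values are not independent of those for genotype. Tsc1 was called in KO-M/V when KO-Mem replicate 3 was left out, at 0.48 (limma adjusted p = 0.0475, range 0.0475 to 0.951 over the alternatives), and was at 0.17 without KO-Mem replicate 1.

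In WT mice the 4 genes with the smallest p were all from the role of cell surface, adhesion and secreted genes, each with a limma adjusted p of 0.978. They include Cask, which is a scaffold of adhesion complexes and not itself a surface or secreted protein. Dscam had 3192, 3288 and 2894 in WT-Veh and 3547, 3404 and 3353 in WT-Mem mice, without overlap, for a log2 fold change of 0.14 (SE 0.07). In KO mice it was 3545, 3253 and 3612 under vehicle and 4540, 4046 and 3513 under memantine, where the groups overlapped, for 0.21 (SE 0.09). Ptchd1 had 266.4, 246.6 and 242.3 in WT-Veh and 277.8, 299.3 and 291.2 in WT-Mem mice, without overlap, for 0.20 (SE 0.10). In KO mice Ptchd1 was 261.6, 312.8 and 233.6 under vehicle and 242.1, 310.1 and 246 under memantine, over a nearly equal range.

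Reln had 4333, 4165 and 2860 in WT-Veh against 3279, 4274 and 3675 in KO-Veh mice, and 4415, 4269 and 4229 in WT-Mem against 3201, 4262 and 3783 in KO-Mem mice. Its WT-M/V value of 0.21 (SE 0.13) was 0.02 without WT-Veh replicate 3, the lowest of all 12 mice. Cask had 2543, 2578 and 2618 in WT-Veh against 2793, 2634 and 2920 in KO-Veh mice, and 2859, 2915 and 2573 in WT-Mem against 3060, 3051 and 2945 in KO-Mem mice. The WT groups overlapped through 1 memantine mouse, for 0.11 (SE 0.07), and the KO groups did not overlap, for 0.12 (SE 0.06). Over both genotypes the 3 genes with an unadjusted p under 0.05 were Dscam at 0.17 (SE 0.06, limma adjusted p = 0.467), Cask at 0.11 (SE 0.04, limma adjusted p = 0.526) and Tsc1 at 0.18 (SE 0.08, limma adjusted p = 0.556).

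Whether the genotype difference itself changed with memantine was tested as an interaction in all 12 mice. None of the 38 risk genes was called by limma, as of all genes (0%), and 0 had an unadjusted p under 0.05, against 2.41% higher and 2.34% lower over all genes. The smallest p values were those of Tsc1 (0.27, SE 0.16), Dyrk1a (0.20, SE 0.12), Myt1l (-0.20, SE 0.12) and Gigyf1 (0.21, SE 0.13), each with a limma adjusted p of 0.947. The larger Mem-K/W than Veh-K/W values of Tsc1, Dyrk1a and Gigyf1 were therefore not shown to differ. The median interaction over the 38 was 0.04, and 23 were above 0, against 48.9% of all genes.

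The comparison of KO-Mem with WT-Veh mice (KO-M/WT-V) asked whether treated mutants resembled untreated wild types. It had 0 of 38 called by limma, against 3.37% of all genes, although 35 of 38 were above 0 with a median of 0.13, against 50.6% and 0.00. At an unadjusted p under 0.05, 8 were higher and 0 lower, against 12.6% and 13.2%, and 12 did not overlap, all higher in KO-Mem, against 31.1%. The values nearest the threshold were Dscam at 0.36 (SE 0.10, limma adjusted p = 0.0626), Tsc1 at 0.48 (SE 0.13, limma adjusted p = 0.0643), Cask at 0.23 (SE 0.06, limma adjusted p = 0.0704), Dyrk1a at 0.31 (SE 0.09, limma adjusted p = 0.0746) and Ddx3x at 0.28 (SE 0.09, limma adjusted p = 0.0922). This comparison shares its mice with Veh-K/W, Mem-K/W and both memantine comparisons. With the spread estimated from all 12 mice 4 of these passed, Cask, Dscam, Dyrk1a and Tsc1, where 11.7% of all genes did.

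Partners and relatives of the risk proteins were taken from lists of complexes and pathways. Their counts in the pooled genotype comparison are to be read against the 10.5% of all genes called, 4.79% higher and 5.73% lower, and several are close to that share. For the Tsc1-Tsc2 complex, 1 of 11 genes of mTOR signalling was called. This was Rps6kb1, the S6 kinase, which rose by 0.29 (SE 0.06, limma adjusted p = 0.0185). Rheb, the direct target of the complex, had -0.17 (SE 0.06, limma adjusted p = 0.063) and Mtor itself 0.11 (SE 0.10). Of 6 genes of the Mediator kinase module, Med12 rose by 0.38 (SE 0.09, limma adjusted p = 0.0217) and Med12l by 0.27 (SE 0.06, limma adjusted p = 0.0193). Of 10 cohesin genes, Stag1 rose by 0.25 (SE 0.05, limma adjusted p = 0.0144) and Mau2, which loads cohesin with Nipbl, by 0.22 (SE 0.05, limma adjusted p = 0.0183).

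In the NCoR complex of Tbl1xr1, 2 of 5 rose, Ncor1 by 0.17 (limma adjusted p = 0.0456) and Tbl1x by 0.18 (limma adjusted p = 0.0467). In microRNA silencing with Tnrc6b, 1 of 8 rose, Cnot1 of the deadenylase complex, by 0.29 (limma adjusted p = 0.00896). Called genes that were lower were the dynein light chain genes Dynll1 at -0.24 (limma adjusted p = 0.0484) and Dynlrb1 at -0.17 (limma adjusted p = 0.0426), 2 of 10 dynein genes. The axonal adhesion genes Cntn2 at -0.28 (limma adjusted p = 0.0085) and Cntnap1 at -0.19 (limma adjusted p = 0.0219) were 2 of 5 genes in the list around Cntnap2. Of these, Cntnap1 is a relative of Cntnap2 and not a partner. Lin7b at -0.30 (limma adjusted p = 0.023) was 1 of 5 partners of Cask.

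No gene was called in the lists around Adnp (4 genes), Phf21a (8), Fmr1 (5), Gigyf1 (3), Naa15 (4), Cul3 (7), the ankyrins (6) and Reln (6). The smallest p in these lists belonged to Cbx1 at -0.16 (SE 0.06), Rcor3 at 0.25 (SE 0.08), Fxr1 at -0.09 (SE 0.04), Gigyf2 at -0.19 (SE 0.07), Naa10 at -0.09 (SE 0.07), Keap1 at 0.16 (SE 0.05), Sptbn4 at -0.04 (SE 0.03) and Dab1 at 0.19 (SE 0.07).

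Risk genes of the other classes lay on the same side of 0 by median. Of 26 synaptic and channel risk genes, 22 were above 0 in the pooled genotype comparison with a median of 0.08, and 0 were called. Of 30 chromatin enzyme and remodeller risk genes, 27 were above 0 with a median of 0.13 and 4 were called, Kmt2e at 0.30 (limma adjusted p = 0.0162), Setd5 at 0.21 (limma adjusted p = 0.0309), Nsd1 at 0.30 (limma adjusted p = 0.033) and Ep300 at 0.27 (limma adjusted p = 0.0336). Over all genes 50.9% were above 0 and 10.5% were called (4.79% higher and 5.73% lower in KO). The difference between these classes and the 38 genes was not tested. By gene length, for the 21 of the 38 that span over 100 kb the median pooled difference was 0.11, and for the other 17 it was 0.04, while over all genes the medians were 0.04 for 2408 long genes and 0.00 for the rest.

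Several lists of non-neuronal markers had negative medians for genotype, whereas the risk genes had a positive one. In the pooled comparison 5 of 7 oligodendrocyte markers were called lower, with a median of -0.31, as were 3 of 7 astrocyte markers (median -0.16), 5 of 6 endothelial markers (median -0.27), 4 of 5 erythrocyte markers (median -0.78) and 1 of 7 microglia markers (median -0.22). Of 5 oligodendrocyte precursor markers 1 was called higher and 1 lower (median -0.11), and of 6 choroid plexus markers none was called (median -0.16). Oligodendrocyte markers summed to 330012 to 408728 normalized counts in WT-Veh, 294989 to 346128 in WT-Mem, 286843 to 306152 in KO-Veh and 238062 to 281130 in KO-Mem mice. Erythrocyte markers summed to 19447 to 26320, 13301 to 14809, 7567 to 18764 and 5626 to 12528 in the same order. KO-Mem replicate 1, highest for 16 risk genes, was also lowest for markers of oligodendrocytes (-0.41 from the 12-mouse mean on the log2 scale) and erythrocytes (-1.52). It was lowest as well for markers of astrocytes (-0.25), microglia (-0.43), endothelial cells (-0.29), choroid plexus (-0.58) and excitatory neurons (-0.14). Inhibitory neuron markers in this mouse were at 0 from that mean. WT-Veh replicate 3 was highest for oligodendrocyte markers at 0.41. No marker of these lists was at 0 in any mouse. Excitatory neuron markers had a median of -0.01 with 0 called higher and 1 called lower of 7, and inhibitory neuron markers a median of 0.02 with 3 called higher and 1 lower of 7. The part of these markers in the differences of the risk genes was not tested.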

How the data were processed

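RNA was measured in the forebrain of 12 mice, 3 per group, and libraries were made, per the labels, with the TruSeq RNA Sample Prep Kit v2, which does not mark strand. The authors estimated transcript abundance with Salmon 1.1.0 on GRCm38 with GC bias correction and imported it to genes with tximport. They deposited 1 signal value per gene and mouse, the estimated count divided by DESeq2 normalization factors (DESeq2 1.26.0 and R 3.6.2 per the labels, which differ from the versions in the methods). Whole reads could not be recovered from it, so the depth per mouse is not known and no count model was used. Fold changes are on the scale of log2(value + 1) and were tested with limma 3.58.1 in R 4.3.3 (lmFit, eBayes with trend) for genes with a mean of at least 10. Adjusted p-values follow Benjamini and Hochberg over all genes tested, and a gene was called at an adjusted p under 0.05. The 5 comparisons of 2 groups used their own 6 mice, and the pooled genotype and memantine differences and the interaction used all 12 without covariates. GENCODE M21 gave symbols, positions and exon lengths for 19295 of 19312 genes. Replicates are separate mice. Groups were taken from the sample labels. The script that fits the models was tested on simulated data.

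The members and lists were chosen with earlier results of these data known. Per-mouse values are given by rule for called members, for the 4 with the smallest p in each genotype or memantine comparison of 6 mice and in the interaction, and for the highest and lowest per kb. In each list of partners reported, the called genes are named, otherwise the one with the smallest p, and 1 list that held a call is not reported here. Wac, Tsc2, Adnp, Tnrc6b and single values of other members were added after their values were seen. Alternatives were another pseudocount, filter, normalization and variance model, a replicate block, 1 fit of all 12 mice, and leaving out each mouse.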

Additional observations from a re-analysis of the deposited data

How the results depend on the processing

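The 2 calls among the risk genes, both for genotype over both treatments, were lost in 11 of 21 alternatives for Tsc1 and 10 of 21 for Dyrk1a. Of all 463 recomputed values of named genes, nearly all not called to begin with, 5 newly passed the threshold and 0 reversed in direction. Leaving out 1 mouse at a time, the number of the 38 risk genes called was 0 to 8 for genotype over both treatments, 0 to 4 in Mem-K/W, 0 to 1 in KO-M/V and 0 to 5 in KO-M/WT-V, and 0 throughout in Veh-K/W, WT-M/V, memantine over both genotypes and the interaction. The highest of each range came without KO-Mem replicate 3, where 18.5%, 10.8%, 0.547% and 14.1% of all genes were called in these 4 comparisons. For genotype over both treatments it was 0 without WT-Veh replicate 2, WT-Mem replicate 1 or 3, KO-Veh replicate 1 or 3, or KO-Mem replicate 1 or 2, and 1 without WT-Veh replicate 3 (Gigyf1) or WT-Mem replicate 2 (Dyrk1a). It was also 0 with eBayes without trend (3.79% of all genes called against 10.5%) and 0 without both WT-Veh replicate 3 and KO-Mem replicate 1, which was chosen after seeing the data (2.31%). KO-M/WT-V had 2 with a replicate block and 4 with all 12 mice in one fit. The cause was not tested. Same-numbered mice did not deviate together (correlations of -0.18 to 0.08), so the numbers do not pair them, and the block changed the count of members in no other comparison. With 3 mice a group an exact permutation test cannot go below p = 0.1, and the depth per mouse is not known.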

Other observations

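Genes that share exon bases with a risk gene were also measured, because the libraries do not mark strand. Of the 38, 14 share exon bases with a gene of the opposite strand, of which Ube3a was the only one over 10% of the exon length, at 27.3% over 3 genes, and 5 with a gene of the same strand, of which Adnp was the only one over 10%. Around Ube3a, Snhg14 ran from 7054 to 15323 normalized counts over the 12 mice, 9330162G02Rik from 699 to 1361 and Gm44560 from 75.91 to 154.1. Their coefficients of variation were 17.2%, 18% and 18.3%. WT-Mem replicate 3 was lowest for Ube3a, Snhg14 and 9330162G02Rik.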
